A study of Mus musculus with 6 samples.

Results

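Genes in which inherited variants cause pulmonary arterial hypertension in people were examined in whole lungs of TNF+ and TNF- mice. The 9 genes were Bmpr2, Acvrl1, Eng, Smad9, Kcnk3, Tbx4, Sox17, Cav1 and Atp13a3. They were chosen by symbol, and each of the 9 had its row among the 49568 gene symbols of the count table. All 9 passed the filter on low counts, as did 19199 symbols in all.

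In this disease the small arteries of the lung narrow and the pressure in the right heart rises. Most of the heritable forms trace to the bone morphogenetic protein (BMP) pathway of endothelial cells. In that pathway BMP9 and BMP10, carried in blood, bind a complex of the type 2 receptor BMPR2, the type 1 receptor ALK1 (encoded by Acvrl1) and the co-receptor endoglin (Eng). The complex phosphorylates SMAD1, SMAD5 and SMAD8 (the last encoded by Smad9), which with SMAD4 switch on target genes such as the Id genes. The other genes act elsewhere. Cav1 encodes the coat protein of caveolae, Kcnk3 the potassium channel TASK-1, Tbx4 a T-box factor of lung mesenchyme, Sox17 a SOXF factor of arterial endothelium, and Atp13a3 a P5-type ATPase linked to polyamine transport.

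Poly(A) RNA was sequenced from lungs of 3 TNF+ mice and 3 TNF- mice, with one library per mouse. TNF+ mice (TNF-Tg in the labels) carry human TNF as a single-copy transgene, and serve as a model in which joint inflammation and pulmonary hypertension develop together. TNF- mice (WT in the labels) were littermates without the transgene, and all 6 mice were females of 4 months on the C57BL/6 background. The driver of the transgene and the cells that express it are not given in the sources used here. The human transgene has no row in the mouse table. Mouse Tnf had 106, 213 and 405 counts in TNF+ lungs and 16, 14 and 35 in TNF- lungs, so the groups did not overlap. Mouse Tnf does not check the transgene itself. The total counts per lung lay between 25396923 and 32529408, so that 3 counts stood at 0.0922 to 0.118 CPM (counts scaled to library size), a limit set by counting error alone. In TNF+ replicate 1, Gm42418 alone took 5.22% of the counts, where the other lungs gave it 0.0774% to 0.274%. Markers of squamous epithelium and skeletal muscle summed to 4605 CPM in TNF- replicate 1 and to 23.03 to 52.07 CPM in the other 5 lungs. Lung epithelial markers, surfactant genes among them, summed to between 18560 and 41530 CPM in the 6 lungs.

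Of the 9 genes, 6 fell in TNF+ lungs: Acvrl1, Cav1, Kcnk3, Smad9, Bmpr2 and Eng. None rose, and Tbx4, Sox17 and Atp13a3 were not called in either direction. A gene was called when its p-value from the quasi-likelihood test of edgeR, adjusted by Benjamini-Hochberg over all genes tested, was under 0.05. The standard error (SE) is that of the fitted log2 fold change. Over all tested genes 47.4% were called, 23.4% lower and 24% higher in TNF+ lungs. At an unadjusted p under 0.05, which 54.8% of all tested genes passed, 8 of the 9 did, and 1 of these (Sox17) was higher in TNF+ lungs. By DESeq2 and by limma-voom the number higher was also 0. Every TNF+ lung lay below every TNF- lung for 6 of the 9 genes, the same that were called lower, and for 28.2% of tested genes. The median log2 fold change of the 9 genes was -1.19, against 0.035 over all tested genes. Counts of bulk tissue give the RNA of a gene per lung RNA, so fewer cells of a type and less RNA per cell cannot be told apart.

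**Figure D1:**
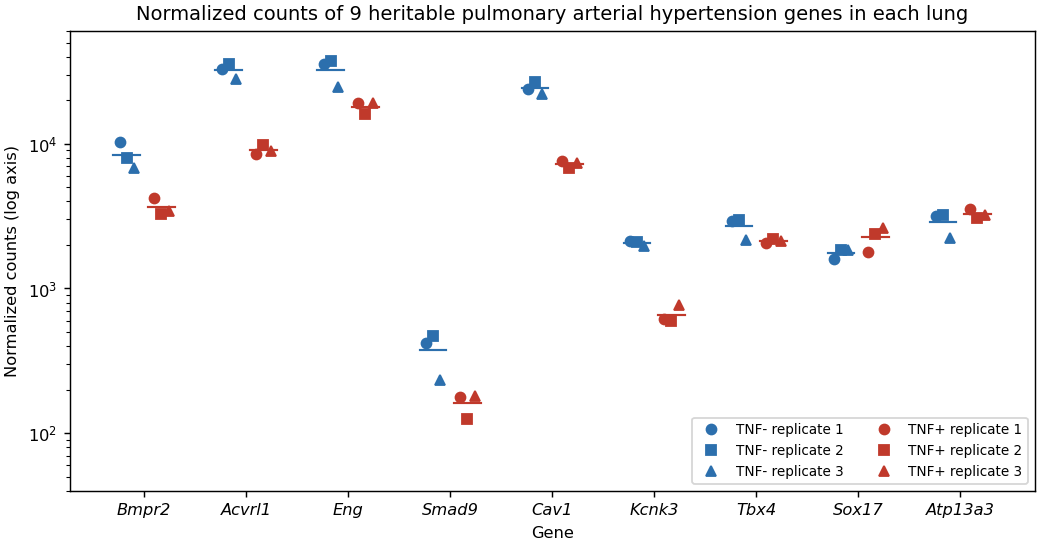
Normalized counts (counts scaled to library size, log axis) of the 9 genes in each of the 3 TNF- (blue) and 3 TNF+ (red) lungs, where each point is one lung and each short line the group mean. For Bmpr2, Acvrl1, Eng, Smad9, Cav1 and Kcnk3 the red points all lie under the blue points, while the groups overlap for Tbx4, Sox17 and Atp13a3.

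The promoters of members that fell together are shown as reference sequence beside the counts. The promoter table used here (RefSeq, GRCm38.p6) matched 5 of the 9 genes, with windows from 250 bases before to 50 bases after the transcript start. One window for each of the 4 fallen genes among them follows, read 5′ to 3′. Of the 2 windows of Cav1, the one at the GENCODE M21 start is printed. Capitals mark GGAAG on either strand (printed as GGAAG or CTTCC), the core bound by ETS factors, a family with members active in endothelium.
Bmpr2, chr1:59764029-59764328, plus strand: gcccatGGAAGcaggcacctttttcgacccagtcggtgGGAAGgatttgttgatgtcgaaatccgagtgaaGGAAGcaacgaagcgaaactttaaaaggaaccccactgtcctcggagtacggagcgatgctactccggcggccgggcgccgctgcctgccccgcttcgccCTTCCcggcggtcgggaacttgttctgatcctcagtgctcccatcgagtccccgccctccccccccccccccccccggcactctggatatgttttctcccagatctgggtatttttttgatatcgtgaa
Eng, chr2:32646345-32646644, plus strand: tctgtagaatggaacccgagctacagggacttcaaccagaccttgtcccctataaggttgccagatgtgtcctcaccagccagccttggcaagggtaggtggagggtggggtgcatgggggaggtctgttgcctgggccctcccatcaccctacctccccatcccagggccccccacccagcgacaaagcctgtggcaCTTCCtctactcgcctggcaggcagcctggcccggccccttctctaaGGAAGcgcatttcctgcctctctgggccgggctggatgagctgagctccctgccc
Smad9, chr3:54755332-54755631, plus strand: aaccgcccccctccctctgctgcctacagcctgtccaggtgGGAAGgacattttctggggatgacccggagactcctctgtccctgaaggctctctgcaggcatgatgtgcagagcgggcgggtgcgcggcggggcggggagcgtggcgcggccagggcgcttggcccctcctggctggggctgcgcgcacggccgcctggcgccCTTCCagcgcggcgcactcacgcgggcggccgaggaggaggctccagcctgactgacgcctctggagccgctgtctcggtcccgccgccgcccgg
Cav1, chr6:17306085-17306384, plus strand: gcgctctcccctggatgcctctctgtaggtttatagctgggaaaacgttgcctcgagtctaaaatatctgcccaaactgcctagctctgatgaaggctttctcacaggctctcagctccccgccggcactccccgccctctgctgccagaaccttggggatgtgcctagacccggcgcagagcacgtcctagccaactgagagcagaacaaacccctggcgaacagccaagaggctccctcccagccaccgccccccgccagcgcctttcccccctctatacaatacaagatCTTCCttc
GGAAG was found 4 times for Bmpr2, 2 times for Eng, 2 times for Smad9 and once for Cav1 in the printed windows, and 71.4% of all 32851 mouse promoters of this length held it. The motif GGCGCC, a GC-rich element bound by SMAD1 and SMAD5, occurred 1 time each for Bmpr2 and Smad9 and was not found for Eng or Cav1, with a share of 11.9% over all promoters. The SMAD element CAGAC occurred 2 times for Eng and in none of the other printed windows, where 49.6% of all promoters held it. No match to the NF-kB motif was found in these 4 windows, and 4.51% of all promoters held one. The sequences of Bmpr2 and Smad9 were rich in CpG, with 23 and 31 CpG against a median of 7 over all promoters, while Eng had 6 and Cav1 had 13. The second Cav1 window, whose start lies 1305 bases downstream, held CAGAC 2 times and no GGAAG. The Bmpr2 start in RefSeq lies 879 bases from that of the GENCODE M21 annotation. Tbx4, not called in either direction, was also matched, but its window is not printed. That window held 3 matches to the ETS core, and none to the SMAD elements or the NF-kB motif. The ETS core was thus not limited to windows of fallen genes. The Tbx4 start in RefSeq lies 10343 bases from that of the GENCODE M21 annotation. Promoters of Acvrl1, Kcnk3, Sox17 and Atp13a3 were not analysed here. Both strands were searched, motifs could overlap one another, and a match describes letters and not a bound site.

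The receptors of the BMP9 complex fell by unequal amounts. Acvrl1 (ENSMUSG00000000530.16, mm10 chromosome 15, 101128522 to 101145336, plus strand) had 8495, 9753 and 8943 normalized counts in TNF+ lungs and 33104, 35505 and 27875 in TNF- lungs. No TNF+ lung came near the TNF- range. The means were 9064 ± 637 (SD, n = 3) and 32161 ± 3901 (SD, n = 3), a 3.55-fold lower level in TNF+ lungs with a log2 fold change of -1.83 (SE 0.14, edgeR adjusted p = 3.55e-05). Of all tested genes, 4.21% had a lower log2 fold change than Acvrl1.

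Bmpr2 (ENSMUSG00000067336.6, chromosome 1, 59763400 to 59879014, plus strand), the gene most often altered in heritable pulmonary arterial hypertension, had 4235, 3277 and 3451 normalized counts in TNF+ lungs and 10323, 7973 and 6764 in TNF- lungs. The groups did not overlap, and the TNF- lungs were spread more widely (coefficient of variation 21.7%) than the TNF+ lungs (14.0%). Its mean was 3655 ± 510 (SD, n = 3) against 8353 ± 1810 (SD, n = 3), and the log2 fold change was -1.19 (SE 0.18, edgeR adjusted p = 0.000943). Eng (ENSMUSG00000026814.16, chromosome 2, 32646595 to 32682669, plus strand) had 19046, 15997 and 19137 normalized counts in TNF+ lungs against 35346, 37262 and 24790. TNF- replicate 3 stood below the other TNF- lungs but above every TNF+ lung. The log2 fold change of Eng was -0.85 (SE 0.18, edgeR adjusted p = 0.00554), the smallest fall of the 6 genes. On the opposite strand, Gm16031 overlaps 127 bases of Acvrl1 exons (0 to 4 counts per lung) and Fpgs overlaps 61 bases of Eng exons (355 to 488 counts per lung).

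Within each lung, Acvrl1 fell relative to both of its partners. The ratio of Acvrl1 to Eng counts was 0.446, 0.610 and 0.467 in TNF+ lungs and 0.937, 0.953 and 1.12 in TNF- lungs, so that the groups did not overlap. The ratio of Acvrl1 to Bmpr2 was 2.01, 2.98 and 2.59 against 3.21, 4.45 and 4.12, also without overlap. The ratio of Bmpr2 to Eng overlapped, with 0.222, 0.205 and 0.180 in TNF+ lungs and 0.292, 0.214 and 0.273 in TNF- lungs. Such ratios do not depend on the scaling of the libraries. A total of 11 pairs was chosen after the values of their genes were seen, so they carry no test. Against related receptors outside the list the same direction was found. Acvrl1 over Acvr1, the type 1 receptor ALK2, was 15.2, 17.1 and 15.1 in TNF+ lungs and 46.2, 43.1 and 45.1 in TNF- lungs. Bmpr2 over Acvr2a, another type 2 receptor, was 10.9, 9.66 and 9.35 against 13.6, 14.5 and 14.0. Neither pair overlapped between groups.

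Smad9 (ENSMUSG00000027796.2, chromosome 3, 54755582 to 54801257, plus strand) was the least abundant of the 9 genes. It had 178, 126 and 180 normalized counts in TNF+ lungs and 420, 468 and 235 in TNF- lungs. TNF- replicate 3 came closest to the TNF+ lungs without reaching them. Means were 161 ± 30.6 (SD, n = 3) and 374 ± 123 (SD, n = 3), and the log2 fold change was -1.21 (SE 0.27, edgeR adjusted p = 0.00751). Smad1, which encodes another receptor SMAD of the same branch, went the other way, with 716, 584 and 670 normalized counts against 466, 412 and 453 (log2 fold change 0.56, edgeR adjusted p = 0.00603). Per lung, Smad9 stood at 0.249, 0.216 and 0.269 of the Smad1 counts in TNF+ lungs and at 0.900, 1.13 and 0.518 in TNF- lungs. In TNF- lungs the pair was thus near parity in 2 of 3 lungs, and in every TNF+ lung Smad1 counts exceeded those of Smad9 by more than in any TNF- lung. Smad5, the remaining member of this branch, had a log2 fold change of -0.084 (edgeR adjusted p = 0.468).

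Around these members, other genes of the BMP pathway were mostly lower among ligands and receptors and divided among inhibitors and targets. Of 6 tested ligand genes 4 fell and 1 rose, with a median log2 fold change of -0.87. Gdf2, which encodes BMP9 and is known mainly from liver, was near the detection floor, with 21.1, 3.10 and 6.61 normalized counts in TNF+ lungs against 34.4, 24.9 and 75.5 (log2 fold change -2.20, standard error 0.67, edgeR adjusted p = 0.0265), and its call was lost when TNF+ replicate 2 or 3 or TNF- replicate 3 was left out. It was -1.60 without TNF- replicate 3 and -3.20 without TNF+ replicate 1. Bmp10 had no counts in any lung, which allows at most the floor of 3 counts. Bmp4, Bmp5 and Bmp6, ligands made in lung tissue, had log2 fold changes of -1.11, -0.90 and -0.85. Bmp2 rose, from 183, 176 and 124 normalized counts in TNF- lungs to 436, 293 and 438 in TNF+ lungs (log2 fold change 1.27, edgeR adjusted p = 0.00205).

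Of 8 other receptor and co-receptor genes 6 fell and none rose, with a median of -0.91. Hfe2, which encodes the co-receptor hemojuvelin and is known from skeletal muscle and heart, had the lowest log2 fold change (-2.63), and its largest value (313 normalized counts against 117 and 114) was in TNF- replicate 1, the lung with the skeletal muscle markers. Without that lung Hfe2 was 4.01-fold lower in TNF+ lungs (edgeR adjusted p = 0.00221), and with it 6.19-fold lower. Rgma, its relative, stood at -1.45, the type 1 receptor gene Bmpr1b at -1.33, and the activin type 2 receptor genes Acvr2b and Acvr2a at -1.11 and -0.71, the last without a call when TNF+ replicate 2 was left out. Rgmb had -0.48 (edgeR adjusted p = 0.0277), a call that 5 of the 13 alternatives lost. The broadly expressed type 1 receptor genes were not called in the main test, with -0.32 for Acvr1 (edgeR adjusted p = 0.0670) and -0.31 for Bmpr1a (edgeR adjusted p = 0.106). Acvr1 was called lower by DESeq2 (adjusted p = 0.0428) and without TNF- replicate 3 (edgeR adjusted p = 0.0196), and Bmpr1a without TNF+ replicate 1 (edgeR adjusted p = 0.0430) or TNF- replicate 3 (edgeR adjusted p = 0.0497).

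Of 13 tested inhibitor genes 7 fell and 3 rose. Smad6, the inhibitory SMAD that BMP signals themselves induce in endothelium, had 1684, 1304 and 1646 normalized counts in TNF+ lungs and 5138, 5493 and 3521 in TNF- lungs (log2 fold change -1.61, edgeR adjusted p = 0.000259). The ubiquitin ligase gene Smurf2 also fell (-1.51), while the follistatin family genes Fst (1.33) and Fstl1 (1.08) rose. Fst lost its call without any one of the TNF+ lungs. The third that rose, Smurf1 (0.33, edgeR adjusted p = 0.0446), lost its call in 10 of the 13 alternatives.

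Target genes did not move as one group, and of 5 tested 2 rose and 1 fell. Id2 rose (log2 fold change 1.15), Atoh8 fell (-0.72), and Id3 passed the threshold narrowly (0.37, edgeR adjusted p = 0.0484) with groups that overlapped and a call that 9 of the 13 alternatives lost. Id1, a standard readout of BMP signalling, had 1623, 1403 and 1610 normalized counts in TNF+ lungs and 1582, 1596 and 2444 in TNF- lungs. The high value was that of TNF- replicate 3, and the log2 fold change of -0.28 was not called (edgeR adjusted p = 0.219). Id4 was not called either (-0.59, edgeR adjusted p = 0.125), with every TNF+ lung below every TNF- lung. Without TNF+ replicate 1 it was called lower (-0.92, edgeR adjusted p = 0.0346). Leukocytes also express Id2, and the part of other cells in these values was not tested. On the TGF-beta and activin side, 4 of 12 genes rose and 4 fell. Among the rises were Tgfbi (1.28) and the receptor gene Tgfbr1 (0.74). The largest falls were in the co-receptor gene Tgfbr3, also called betaglycan (-0.94), and in the ligand genes Inhbb (-0.74) and Tgfb3 (-0.61).

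**Figure D2:**
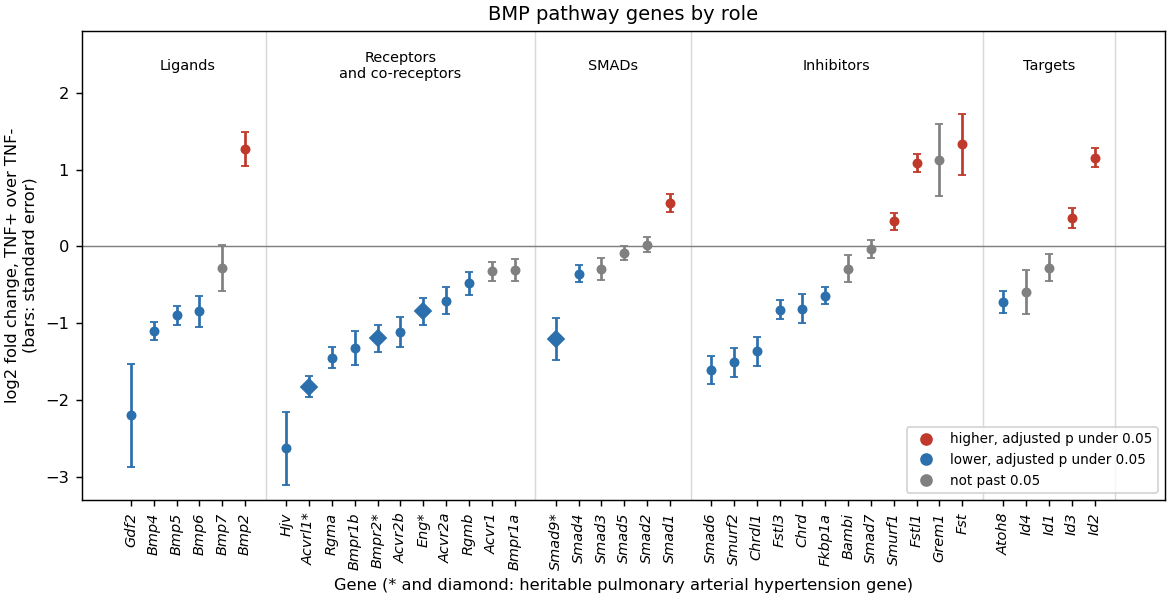
Log2 fold change of TNF+ over TNF- lungs (points, with standard error bars, n = 3 lungs each) for most tested genes of the BMP pathway and other SMADs, grouped by role, with the heritable pulmonary arterial hypertension genes drawn as diamonds. Blue points (lower) and red points (higher) passed an adjusted p of 0.05. The receptor and co-receptor panel lies wholly under 0 and holds 3 of the diamonds, while ligands, inhibitors and targets hold points on both sides.

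Cav1 (ENSMUSG00000007655.16, chromosome 6, 17306335 to 17341452, plus strand) had 7638, 6791 and 7417 normalized counts in TNF+ lungs and 23846, 26719 and 22088 in TNF- lungs. The lowest TNF- lung stood far above the highest TNF+ lung. The means were 7282 ± 439 (SD, n = 3) and 24218 ± 2338 (SD, n = 3), 3.33-fold lower in TNF+ lungs (log2 fold change -1.73, standard error 0.12, edgeR adjusted p = 2.80e-05). Caveolae are dense in endothelium and in flat alveolar type 1 cells, and Cav1 protein is needed to form them in both. Of 6 other caveolar coat genes 5 fell and 1 rose. Sdpr (Cavin2) had a log2 fold change of -1.88, Ehd2 of -1.46, Cav2 of -1.41 and Ptrf (Cavin1) of -1.28. Pacsin2 stood at -0.29 (edgeR adjusted p = 0.0451), a call lost in 7 of the 13 alternatives. Prkcdbp (Cavin3) was higher in TNF+ lungs (0.51, edgeR adjusted p = 0.00594). The ratio of Cav1 to Cav2, which form mixed oligomers, overlapped between the groups, with 5.03, 5.59 and 6.41 in TNF+ lungs and 6.19, 7.01 and 8.32 in TNF- lungs.

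Kcnk3 (ENSMUSG00000049265.7, chromosome 5, 30588170 to 30625271, plus strand) encodes TASK-1, a two-pore potassium channel that sets the resting potential of pulmonary artery smooth muscle in people. It had 613, 596 and 769 normalized counts in TNF+ lungs and 2136, 2081 and 1966 in TNF- lungs. The TNF- lungs agreed closely (coefficient of variation 4.19%), and the highest TNF+ lung stood far below them. The log2 fold change was -1.64 (SE 0.12, edgeR adjusted p = 2.87e-05), from 2061 ± 86.3 (SD, n = 3) to 659 ± 95.6 (SD, n = 3). The antisense gene Gm9899 overlaps 229 bases of the Kcnk3 exons and had 22, 55 and 53 counts in TNF+ lungs and 171, 148 and 127 in TNF- lungs. The log2 fold change of Gm9899 was -1.61 (edgeR adjusted p = 0.00229). Whether the counting used strand is not given in the sources used here. The reads of this overlap therefore cannot be assigned to one of the pair. Of 10 other two-pore and vascular potassium channel genes 5 fell and 2 rose. Among the falls were the two-pore channel TREK-1 gene Kcnk2 (log2 fold change -1.74) and Kcna2 (-1.33), and the rises were in Kcnj8 (0.85), the pore of vascular ATP-sensitive channels, and in the two-pore gene Kcnk6 (0.54).

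The 3 genes that were not called had groups that overlapped. Tbx4 (ENSMUSG00000000094.12, chromosome 11, 85886422 to 85916097, plus strand) had 2050, 2184 and 2133 normalized counts in TNF+ lungs and 2909, 2997 and 2177 in TNF- lungs. TNF- replicate 3 lay among the TNF+ lungs, while the other TNF- lungs were higher. The log2 fold change was -0.34 (SE 0.13, edgeR adjusted p = 0.0584), and it depended on that lung: without TNF- replicate 3 it was -0.48 (edgeR adjusted p = 0.00341). DESeq2 also called it (-0.37, adjusted p = 0.0222). TBX4 acts with TBX5 upstream of FGF10 in lung mesenchyme during development, and these partners were lower. Of 6 T-box and SOXF partner genes 5 fell and none rose. Fgf10 had a log2 fold change of -1.99, Tbx2 of -1.37, Tbx3 of -1.28 and Tbx5 of -0.83. The ratio of Tbx4 to Tbx5 was 2.63, 2.74 and 2.39 in TNF+ lungs and 1.91, 1.85 and 1.74 in TNF- lungs, without overlap.

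Sox17 (ENSMUSG00000025902.13, chromosome 1, 4490931 to 4497354, minus strand) had 1780, 2385 and 2626 normalized counts in TNF+ lungs and 1601, 1859 and 1843 in TNF- lungs. TNF+ replicate 1 fell inside the range of the TNF- lungs, and the other TNF+ lungs stood above it. The log2 fold change was 0.36 (SE 0.15, edgeR adjusted p = 0.0781). Without TNF+ replicate 1, the lung with the high share of Gm42418, it was 0.47 (edgeR adjusted p = 0.0170). The other SOXF genes, Sox7 and Sox18, act alongside Sox17 in vascular endothelium. Sox7 fell, with 1051, 1119 and 1595 normalized counts against 2581, 2467 and 2077 (log2 fold change -0.92, edgeR adjusted p = 0.00274), and Sox18 stood at -0.29 (edgeR adjusted p = 0.0875). Sox18 was called lower by DESeq2 (-0.31, adjusted p = 0.0486) and without TNF+ replicate 3 (-0.44, edgeR adjusted p = 0.0128). Within each lung, Sox17 was 1.69, 2.13 and 1.65 times Sox7 in TNF+ lungs and 0.620, 0.754 and 0.887 times Sox7 in TNF- lungs, so Sox17 counts were above those of Sox7 in every TNF+ lung and below in every TNF- lung. Against Sox18 the ratio was 0.715, 0.919 and 0.796 in TNF+ lungs and 0.489, 0.55 and 0.515 in TNF- lungs, again without overlap. The antisense gene Gm37587 overlaps 804 bases of the Sox17 exons and had 0 to 8 counts per lung.

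Atp13a3 (ENSMUSG00000022533.14, chromosome 16, 30312423 to 30405975, minus strand) had 3563, 3051 and 3207 normalized counts in TNF+ lungs and 3160, 3245 and 2223 in TNF- lungs. The groups overlapped, and TNF- replicate 3 had the lowest value. Its log2 fold change was 0.19 (SE 0.15, edgeR adjusted p = 0.343), and it was 0.027 without that lung. Among 13 tested polyamine and P5-type ATPase genes 3 rose and 4 fell. Atp13a2, which encodes a lysosomal polyamine exporter, rose (log2 fold change 0.82), as did the polyamine catabolism genes Paox (0.92) and Sat1 (0.83). Atp13a4 fell (-2.80), and so did the synthesis genes Sms (-0.54) and Odc1 (-0.53, edgeR adjusted p = 0.0281), the last of which lost its call with the replicate block and when TNF+ replicate 2 or 3 or TNF- replicate 3 was left out. The ratio of Atp13a3 to Atp13a2 was 0.439, 0.305 and 0.439 in TNF+ lungs and 0.655, 0.680 and 0.465 in TNF- lungs.

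The low value of TNF- replicate 3 recurred across the list. It was the lowest TNF- lung for 8 of the 9 genes, where 37.8% of all tested genes had their lowest TNF- value in that lung. The summed endothelial markers were also lowest there (4311 CPM against 4767 and 5087), as were those of lung mesenchyme (1987 CPM against 2802 and 3146), and their part in the members' values was not tested. Leaving that lung out moved each of the 6 falls further from 0, to -1.33 for Bmpr2, -1.93 for Acvrl1, -1.01 for Eng, -1.46 for Smad9, -1.68 for Kcnk3 and -1.80 for Cav1 (log2 fold changes). Without TNF- replicate 1, the lung with squamous and muscle markers, the values were -1.04 for Bmpr2, -1.83 for Acvrl1, -0.80 for Eng, -1.14 for Smad9, -1.64 for Kcnk3 and -1.77 for Cav1, and each of the 6 was still called. In the other group, TNF+ replicate 2 was the lowest lung for 6 of the 9 genes, against 31.6% of all tested genes. Without it the log2 fold changes were -1.12 for Bmpr2, -1.88 for Acvrl1, -0.76 for Eng, -1.06 for Smad9, -1.57 for Kcnk3 and -1.68 for Cav1, nearer to 0 for 5 of the 6, and all 6 were still called.

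Levels of different genes were compared per kilobase of exon. In TNF- lungs Eng (265 CPM per kb), Acvrl1 (249 CPM per kb) and Cav1 (233 CPM per kb) were the most abundant, with ranges over lungs that overlapped. Tbx4 (26.2), Kcnk3 (17.2), Bmpr2 (15.4), Sox17 (12.3), Atp13a3 (9.58) and Smad9 (2.31) followed in CPM per kb. The ranges of Kcnk3 and Bmpr2 overlapped, as did those of Bmpr2 and Sox17, whereas that of Smad9 lay under all others. In TNF+ lungs Eng stood alone at the top (148 CPM per kb, range 131 to 156), above Acvrl1 (70.3) and Cav1 (70.0), which overlapped. By its mean, Kcnk3 went from the fifth to the eighth place (5.49 CPM per kb), with a range that overlapped that of Bmpr2. In TNF+ replicate 3 it stood above Bmpr2 (6.40 against 6.35 CPM per kb). Sox17 (15.7 CPM per kb) and Atp13a3 (10.9 CPM per kb) both stood above Bmpr2 (6.72 CPM per kb) in every TNF+ lung. In TNF- lungs Sox17 stood above Bmpr2 in replicate 3 (12.8 against 12.4 CPM per kb) and below it in the other two, and Atp13a3 stood below it in all 3.

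The cell types of the lung differed in their RNA between the groups. Of 12 endothelial markers 11 fell and 1 rose (Emcn), with summed levels of 2066 to 2344 CPM in TNF+ lungs against 4311 to 5087 CPM in TNF- lungs and a median log2 fold change of -1.10. Arterial endothelial markers fell in 5 of 6 (median -0.88), smooth muscle markers in 4 of 6 (-1.08), pericyte markers in 3 of 6 (-0.42), lung mesenchyme markers in 7 of 8 (-1.54), alveolar type 1 markers in 6 of 6 (-1.70) and cardiac muscle markers in 8 of 8 (-2.10). Alveolar type 2 and airway epithelial markers fell in 5 of 7 (median -0.88) and fat cell markers in 1 of 3 tested. Squamous and skeletal muscle markers were called lower in 5 of 6 tested, with groups that did not overlap for 3 of the 6, and the number called was 3 without TNF- replicate 1, the lung that held most of their counts, and 0 to 1 without any one of the TNF+ lungs. Leukocyte markers rose in 7 of 8, from summed levels of 285.9 to 499.1 CPM in TNF- lungs to 2941 to 5138 CPM in TNF+ lungs.

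**Figure D3:**
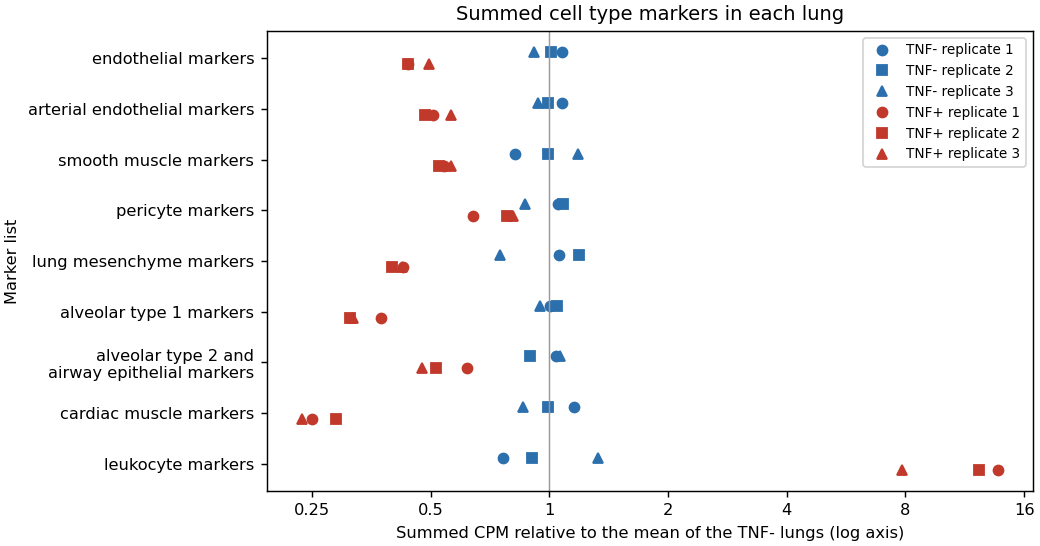
Summed CPM of 9 cell type marker lists in each lung, divided by the mean of the 3 TNF- lungs (log axis), with TNF- lungs in blue and TNF+ lungs in red. The red points of leukocyte markers lie far to the right of 1, and those of the other 8 lists shown lie to the left of the blue points. Fat cell markers, whose groups overlapped, and squamous and skeletal muscle markers are not drawn.

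To describe the 9 genes relative to endothelium, the same edgeR test was run with each lung scaled to the 12 endothelial markers in place of all genes. This scaling moved the median log2 fold change of all tested genes from 0.035 to 1.11, and under it 81.7% of tested genes were called, 76.8% higher and 4.81% lower in TNF+ lungs. Of the 9 genes 3 fell relative to the endothelial markers. Acvrl1 had a log2 fold change of -0.75 (SE 0.15, edgeR adjusted p = 0.00157), Cav1 of -0.66 (SE 0.14, adjusted p = 0.00194) and Kcnk3 of -0.58 (SE 0.10, adjusted p = 0.000815). Each of the 3 fell further than 9 of the 12 endothelial markers, with Ramp2 (-2.49 on the scale of all genes), Ptprb (-2.07) and Tek (-1.94) as the exceptions.

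Bmpr2, Smad9 and Eng were not called against the endothelial markers. Their log2 fold changes on this scale were -0.11 for Bmpr2 (edgeR adjusted p = 0.574), -0.13 for Smad9 (adjusted p = 0.637) and 0.23 for Eng (adjusted p = 0.247), with SE of 0.17, 0.25 and 0.18. The signs of Bmpr2 and Smad9 turned when 1 TNF- lung was left out, so no direction is given for them. Tbx4 (0.74, edgeR adjusted p = 0.000668), Atp13a3 (1.27, adjusted p = 7.87e-05) and Sox17 (1.42, adjusted p = 4.67e-05) were higher relative to the endothelial markers, and the median of all tested genes on this scale was 1.11.

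**Figure D4:**
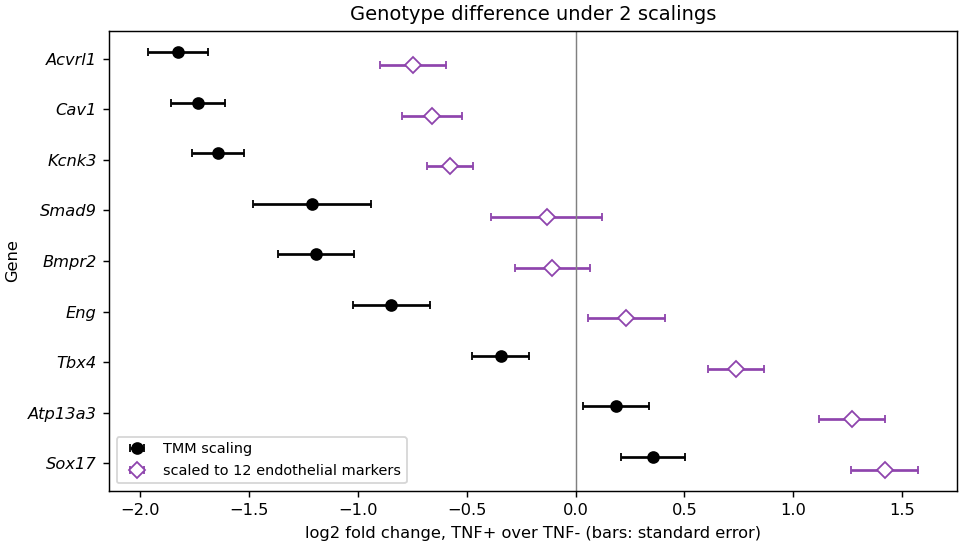
Log2 fold change of TNF+ over TNF- lungs (n = 3 each, bars show the standard error) of the 9 genes with TMM scaling over all genes (black) and with scaling to 12 endothelial markers (open diamonds). The diamonds of Acvrl1, Cav1 and Kcnk3 stay left of 0, those of Smad9, Bmpr2 and Eng lie near 0, and those of Tbx4, Atp13a3 and Sox17 lie to the right.

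Values relative to other cell types were described in each lung as the log2 CPM of the gene minus the mean log2 CPM of a marker list. Relative to endothelial markers, Acvrl1 stood at 1.05, 1.26 and 0.97 in TNF+ lungs and at 1.82, 1.99 and 1.72 in TNF- lungs, a lower position without overlap that 4.94% of tested genes shared. Relative to alveolar type 1 markers, Cav1 stood at 0.88, 0.94 and 0.95 in TNF+ lungs and at 0.86, 1.03 and 0.95 in TNF- lungs. These groups overlapped, with a difference of means of -0.025, which lies within the spread of the lungs. Acvrl1 (-0.12) and Kcnk3 (0.056) overlapped relative to that list too. The remaining members stood higher without overlap, Smad9 only with the prior count of 2. Over all tested genes, 88% stood higher and 1.47% lower without overlap. Kcnk3 relative to pericyte markers was -0.80, -1.19 and -0.90 in TNF+ lungs and 0.18, 0.12 and 0.22 in TNF- lungs. That difference of -1.14 was without overlap, in the lower direction that 10.8% of tested genes shared. Relative to smooth muscle markers Kcnk3 was lower by a smaller step (-0.55, also without overlap, a lower position that 4.25% of tested genes shared), and relative to lung mesenchyme markers it overlapped (0.055). No value of Kcnk3 relative to cardiac muscle markers, which fell in 8 of 8 (median log2 fold change -2.10), was computed. Tbx4, a mesenchyme gene, stood at -0.051, 0.32 and 0.057 relative to the mesenchyme markers in TNF+ lungs and at -1.26, -1.32 and -1.21 in TNF- lungs. It was thus higher relative to that list in every TNF+ lung, as 86.5% of tested genes were.

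Other genes linked to pulmonary arterial hypertension were lower more often than higher in TNF+ lungs. Of 17 tested genes of this second list, which shares Gdf2, Bmpr1b, Smad1, Smad4, Kcna5 and Notch3 with the lists above, 9 fell and 1 (Smad1) rose, and the median log2 fold change was -0.66. The 3 largest falls were in Gdf2, in the kallikrein gene Klk1 (-1.60) and in Kdr (-1.44). Kdr, which encodes the VEGF receptor of endothelium, had 4255, 2965 and 4392 normalized counts in TNF+ lungs and 11490, 11449 and 8612 in TNF- lungs, without overlap. Klk1 had at most 37.3 normalized counts in any lung and lost its call in 6 of 12 alternatives, its counts being too low for the filter of at least 10 in every lung. Smad4, the partner SMAD shared by all branches, had a log2 fold change of -0.36 (edgeR adjusted p = 0.0287) and lost its call in 6 of 13 alternatives.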

How the data were processed

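One stranded, single-end poly(A) library was sequenced from the lung of each mouse, 3 TNF+ and 3 TNF-. Per the labels' processing notes, the authors used Trimmomatic (0.36), STAR (2.5.2b), featureCounts and the build GRCm38.p5. The strand setting and the annotation of the counting are not given in the sources used here. The deposited values are raw counts of reads per lung for each gene symbol, not normalized, and totals of 25396923 to 32529408 per lung set the precision. All 6 columns were used.

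Counts were tested with edgeR (4.0.16, R 4.3.3) (quasi-likelihood test, filterByExpr, TMM) in a model of genotype alone, with p-values adjusted by Benjamini-Hochberg over 19199 genes and a threshold of 0.05. The standard error was the size of the log2 fold change divided by the square root of F. Normalized counts are counts over the TMM-scaled total, times its mean over lungs, and log2 CPM used a prior count of 2. For the endothelial scaling, the library size was replaced by the mean log ratio of 12 endothelial markers. Gene positions and exon lengths are from GENCODE M21 (mm10). Symbols Sdpr, Ptrf, Prkcdbp and Hfe2 are older names of Cavin2, Cavin1, Cavin3 and Hjv in RefSeq.

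The alternatives were DESeq2 (1.42.0), limma-voom (limma 3.58.1), DESeq2 size factors, scaling by total counts, testing every gene with a count, a minimum of 10 counts per lung, a block for the replicate number, leaving out each lung, summed endothelial counts, and a prior count of 0.5. The 9 genes, the pathway and marker lists and the tests were chosen with earlier results of these data known. All 9 members are named. Of other lists, every gene of a list of up to 8 may be named, and of longer lists the 3 that rose most and the 3 that fell most among called genes. The ratios of gene pairs, Tnf, Gm42418 and the antisense genes were added after values were seen. The values of a few single genes are not reported here, though their lists' counts include them. Programs were tested on simulated counts.

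The labels number the replicates, but mice that share a number are different animals. Deviations of same-numbered lungs from their group means correlated at -0.149, -0.00429 and -0.242 across genes, so the numbers did not pair the lungs.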

Additional observations from a re-analysis of the deposited data

How the results depend on the processing

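Bmpr2, Acvrl1, Eng, Smad9, Kcnk3 and Cav1 were lower in TNF+ lungs and past the threshold in all 13 alternatives, each lung left out included. Their largest adjusted p-values were 0.0316 (Smad9) and 0.0284 (Eng) by edgeR with 1 lung left out. Tbx4 passed the threshold with DESeq2 (log2 fold change -0.37, adjusted p = 0.0222) and with DESeq2 size factors (-0.37, adjusted p = 0.0426), and with each lung left out in turn it ranged from -0.48 to -0.27. Sox17 ranged from 0.22 to 0.47 in those fits, and the number of members called higher from 0 to 1. With 1 lung left out the fit pools the spread over both groups. Relative to the endothelial markers, Bmpr2 ranged from -0.25 to 0.034, turning sign without TNF- replicate 1 (0.034), and Smad9 from -0.36 to 0.066, turning sign without TNF- replicate 2 (0.066). The cause was not tested.

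With a replicate block (lungs paired by number), the pairing changed no call of a member (log2 fold change -1.18 and adjusted p = 0.00155 for Bmpr2, -0.83 and 0.0222 for Eng, -1.17 and 0.0266 for Smad9, by edgeR), while 7686 genes were called in all. Without a filter on low counts 26.1% of 34744 genes were called. The depth limits Gdf2 and Klk1, whose levels were near the floor, and 3 lungs per group limit all values.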
